A study of Stylophora pistillata with 6 samples.

Results

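CATA (Spis3094), CP3AB (Spis15558.t2 and Spis10258), COQ8A (Spis13613) and NF2L1 (Spis2715) are 5 gene models of redox metabolism in the reef coral Stylophora pistillata, out of 25769 gene models counted. They were picked by ID from the study's own list of genes that differed between day and night, where they carry the names of their best BLAST hits. That list was made from the same libraries, so every day and night value of the 5, and every call made on them, is a description here and supports no difference. RNA was taken from microcolonies, which were terminal portions of branches cut from 3 syngenic parent colonies. The microcolonies were left 10 days to heal. The tanks were kept at 25 °C, a salinity of 38 and 175 µmol photons per square metre and second, and light and dark phases lasted 12 h each. The 3 day samples were frozen with 1 h of light left and the 3 night samples with 1 h of darkness left. Both groups came from the same fed culture with no other treatment in the labels, and the reads of the symbiotic algae were not analysed here. Each sampling time stands for 1 point of the cycle, so light and clock phase cannot be told apart in these libraries. In whole tissue a change in RNA per cell and a change in the share of the cells that carry it cannot be told apart either. Outside these data, the study measured catalase by qPCR in new samples, where it was again higher by day. It also followed catalase under continuous light and continuous darkness, and proposes that circadian control mainly regulates it.

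Photosynthesis by the algae inside coral cells fills the tissue with oxygen in the light, while respiration leaves it short of oxygen at night. Reactive oxygen species follow from both respiration and photosynthesis, and hydrogen peroxide is also the by-product of oxidases in the peroxisome. Catalase splits hydrogen peroxide into water and oxygen around a heme group. Cytochromes P450 of the CP3AB kind, known from mouse liver, are heme enzymes of the endoplasmic reticulum that add oxygen to steroids and foreign compounds with electrons from a reductase. COQ8A is a mitochondrial protein needed to make coenzyme Q, the lipid that carries electrons in the respiratory chain. NF2L1 is a DNA-binding regulator of the basic leucine zipper class that, in mammals, turns on proteasome genes and antioxidant genes.

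For catalase, on which most of the comparisons turn, the study's table of qPCR primers gives a fragment of the gene it calls CATA. It is shown because no other of the 5 has a sequence in the sources used here. The fragment is 119 bases long, 46.2% of them G or C, and only 1 of the 3 reading frames of the printed strand lacks a stop codon. Both primer sites, of 22 bases each, are in capitals, and the sequence runs 5′ to 3′ from the forward primer.
CATA: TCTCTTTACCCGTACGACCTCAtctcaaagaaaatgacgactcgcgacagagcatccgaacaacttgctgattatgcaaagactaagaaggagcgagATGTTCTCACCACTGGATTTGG

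Depth ran from 1552480 to 6619275 coral reads in day libraries and from 1916270 to 3062255 in night libraries. The deposited value of a gene model whose ID starts longer IDs includes the reads of those, which were subtracted (2371 gene models). None of the 5 was among them (0 values changed), but the library totals behind their levels depend on it. Levels are reads scaled to the library total (CPM, counts per 1000000 reads) after TMM scaling and are not divided by length, so they are compared between libraries and not between genes. In edgeR's quasi-likelihood fit over 24180 gene models, 4 of the 5 passed an adjusted p of 0.05, 2 higher and 2 lower by day, where 0.666% of all gene models passed (0.256% higher and 0.409% lower). In 5 of the 5 the day and night libraries did not overlap in CPM, where 10.1% of all gene models did not (5.05% above and 5.04% below by day). As the members were chosen on this contrast, nothing is read from either count or from the calls of single members.

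Catalase was higher in every day library. CATA stood at 1465, 786 and 1087 CPM in day replicates 1, 2 and 3, from 4095, 1227 and 7389 reads, and at 365, 379 and 394 CPM in night replicates 1, 2 and 3, from 1128, 726 and 1007 reads. The lowest day library lay 1.99-fold above the highest night library. The means were 1113 ± 340.1 CPM by day and 379 ± 14.6 CPM by night (SD, n = 3 each), which the fit put at 2.93-fold (log2 fold change 1.55, standard error 0.25). The coefficient of variation was 30.6% among day libraries and 3.85% among night libraries, which were nearly level. The spread by day was larger than counting error. The 95% exact binomial intervals, which cover counting error only, were 1421 to 1511, 743 to 832 and 1062 to 1112 CPM in the 3 day libraries and did not meet, whereas those of the night libraries (344 to 387, 352 to 408 and 370 to 419 CPM) all overlapped.

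**Figure D1:**
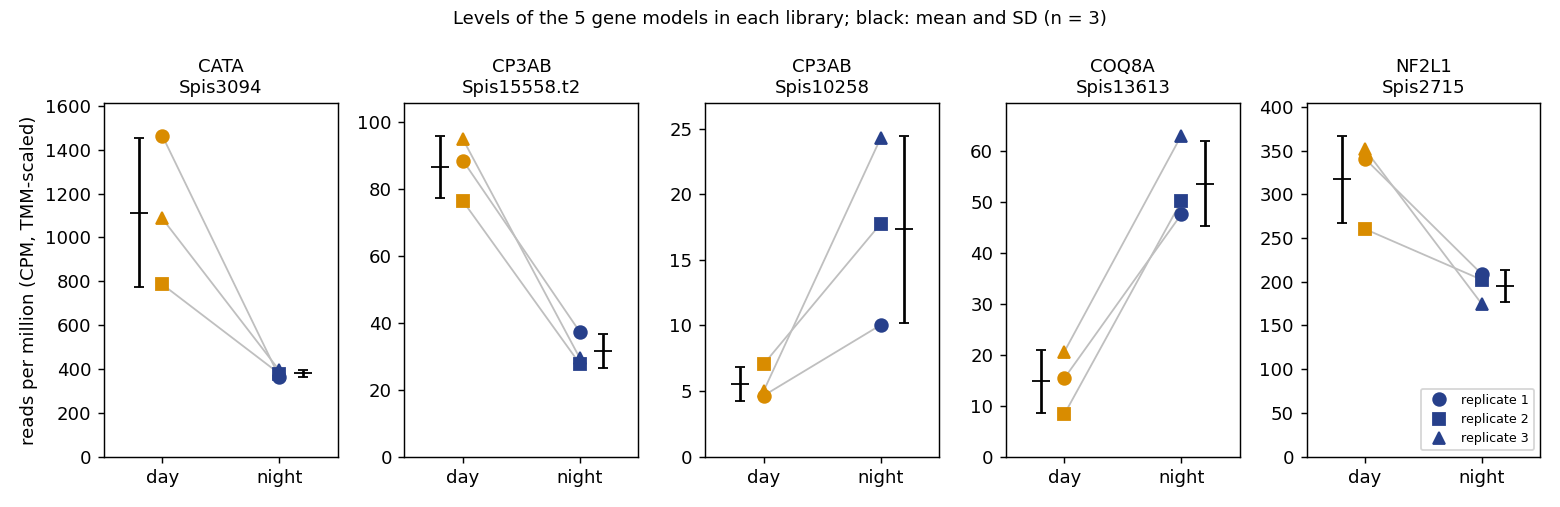
CPM after TMM scaling of each of the 5 gene models in the 3 day libraries (left in each panel) and the 3 night libraries (right). Gray lines join libraries of the same replicate number and black bars give the mean and SD. CATA, CP3AB (Spis15558.t2) and NF2L1 were higher in 3 of 3 day libraries than in any night library, CP3AB (Spis10258) and COQ8A lower, and CATA spread more by day (30.6%) than by night (3.85%).

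The CP3AB gene models stood in opposite order. Spis15558.t2 had 88.4, 76.3 and 94.7 CPM in day replicates 1, 2 and 3 (247, 119 and 644 reads) and 37.2, 27.7 and 29.4 CPM in night replicates 1, 2 and 3 (115, 53 and 75 reads). It was 2.75-fold higher by day (log2 fold change 1.46, standard error 0.20), and the groups were 2.05-fold apart at their nearest libraries. Spis10258, which carries the same BLAST name, had 4.65, 7.05 and 5.00 CPM in day replicates 1, 2 and 3 and 10.0, 17.8 and 24.3 CPM in night replicates 1, 2 and 3. It was 3.19-fold lower by day (log2 fold change -1.68, standard error 0.36).

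Spis10258 rested on the fewest reads of the 5, with 13, 11 and 34 in the day libraries and 31, 34 and 62 in the night libraries. The counting interval of day replicate 2 ran from 3.52 to 12.6 CPM and that of night replicate 1 from 6.82 to 14.2 CPM, so these neighbours in the order were not separated at this depth. It did not pass the adjusted p of 0.05 without night replicate 2 or without night replicate 3, in limma-voom (0.461% of all gene models called), or in DESeq2 with the replicate block (0.529%). Without night replicate 3 its log2 fold change was -1.33. Reads shared with other P450 gene models could be split between them by the counting, and how the authors' script treated such reads is not given in the sources used here.

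COQ8A was lower in every day library, at 15.4, 8.33 and 20.6 CPM in day replicates 1, 2 and 3 (43, 13 and 140 reads) against 47.6, 50.1 and 63.0 CPM in night replicates 1, 2 and 3 (147, 96 and 161 reads). The groups were apart by 2.31-fold at their nearest libraries. The means were 14.8 ± 6.16 CPM by day and 53.6 ± 8.29 CPM by night (SD, n = 3 each), 3.40-fold lower by day (log2 fold change -1.77, standard error 0.25).

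NF2L1, the regulator among the 5, had the smallest difference. It stood at 341, 260.2 and 351 CPM in day replicates 1, 2 and 3 (952, 406 and 2388 reads) and at 208, 202 and 174 CPM in night replicates 1, 2 and 3 (644, 387 and 445 reads). The groups were 1.25-fold apart at their nearest libraries, and the fitted difference was 1.63-fold (log2 fold change 0.71, standard error 0.20). It did not pass an adjusted p of 0.05 in edgeR. With the replicate number as a block it passed in edgeR (log2 fold change 0.70), so 5 of the 5 were then called, where 1.69% of all gene models were. In DESeq2 it passed without the block, where 0.616% of all gene models passed, and not with it. NF2L1 also passed in edgeR with the values as deposited, where 138 of 24248 gene models were called. Its own reads were unchanged there, but the library totals were not.

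Samples of the same replicate number deviated together, though weakly, over the 14262 gene models with at least 10 reads in every library. Each gene model was therefore also compared within numbers. CATA was 4.01-fold higher by day in number 1, 2.07-fold in number 2 and 2.76-fold in number 3. These 3 ratios were apart by more than counting error, with 95% intervals of 3.76 to 4.29, 1.89 to 2.28 and 2.58 to 2.95. CP3AB (Spis15558.t2) gave 2.37, 2.76 and 3.23-fold in numbers 1, 2 and 3, the tightest agreement of the 5 (range 0.44 on the log2 scale). Its 3 intervals overlapped, running from 1.90 to 2.99, from 1.98 to 3.88 and from 2.54 to 4.15.

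NF2L1 was 1.63, 1.29 and 2.02-fold higher by day in numbers 1, 2 and 3. Both gene models that were lower by day kept that order in 3 of 3 numbers. For all 5 the direction within numbers was fixed, since day and night libraries did not overlap, and only the sizes differ. CP3AB (Spis10258) was 2.16, 2.52 and 4.85-fold lower by day in numbers 1, 2 and 3, and COQ8A 3.09, 6.02 and 3.06-fold lower. The 6.02-fold value of COQ8A rests on 13 reads in day replicate 2 and has a counting interval of 3.36 to 11.7. Number 2 held the smallest ratio of CATA and NF2L1 and the largest fall of COQ8A, so the 5 did not share 1 order of the numbers.

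**Figure D2:**
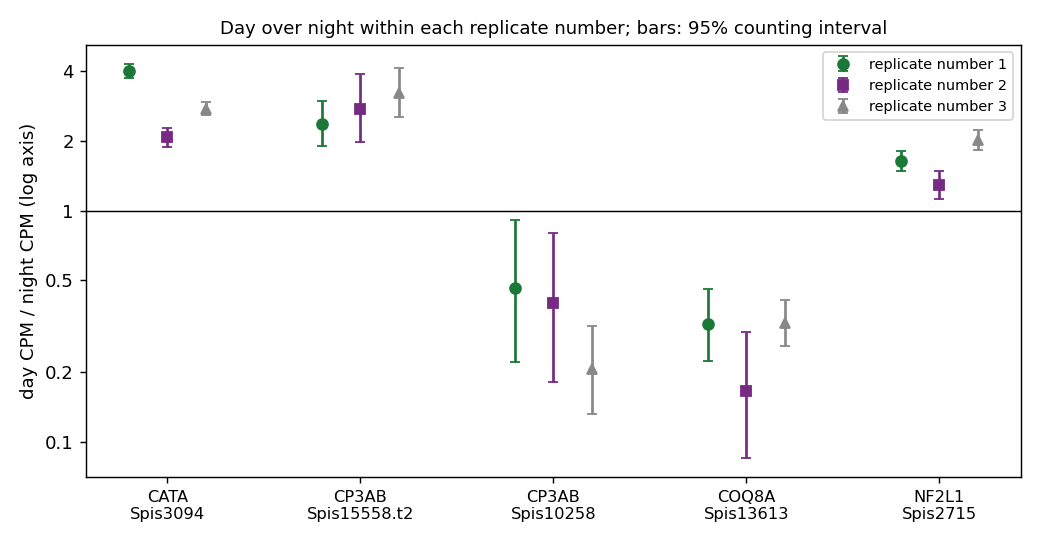
Day CPM over night CPM within each replicate number (log axis) with 95% counting intervals, for the 5 gene models. The line marks equal levels. All 15 ratios lie on the side of their gene model, which was fixed because the day and night libraries do not overlap. CATA ranges from 2.07 to 4.01, and in each replicate number the widest interval is that of CP3AB (Spis10258), which has the fewest reads.

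Ratios of reads within a library do not depend on how the libraries were scaled. Because lengths differ, only the change of a ratio between libraries has meaning. CATA over CP3AB (Spis15558.t2) was 16.6, 10.3 and 11.5 in day replicates 1, 2 and 3 and 9.81, 13.7 and 13.4 in night replicates 1, 2 and 3, so the groups overlapped and the 2 gene models differed between day and night by similar factors (ratio of the geometric means 1.03). CATA over NF2L1 was 3.02 to 4.30 in day libraries and 1.75 to 2.26 in night libraries, without overlap. CATA over COQ8A was 52.8 to 95.2 by day and 6.25 to 7.67 by night, a 10.9-fold shift of the geometric means. Between the CP3AB gene models, Spis15558.t2 over Spis10258 was 19.0, 10.8 and 18.9 in day replicates 1, 2 and 3 and 3.71, 1.56 and 1.21 in night replicates 1, 2 and 3, an 8.23-fold shift. This ratio and CATA over COQ8A each divide a gene model higher in all day libraries by 1 lower in all. Their groups could not overlap, and both shifts restate the differences on which the gene models were chosen.

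**Figure D3:**
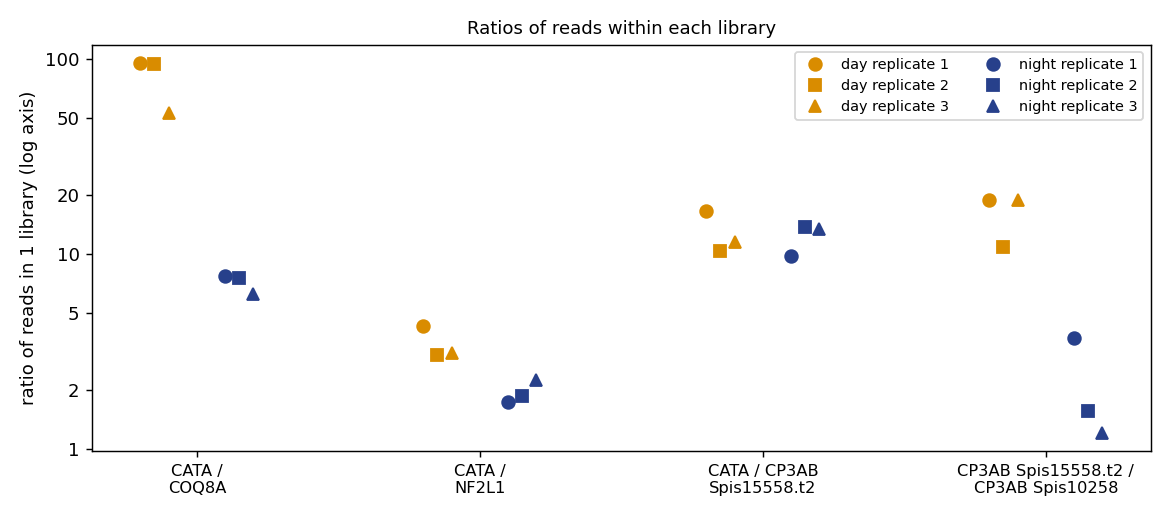
Ratio of the reads of 2 gene models in each library (log axis; orange, day; blue, night). Day and night libraries stay apart in 3 of the 4 ratios and overlap in CATA over CP3AB (Spis15558.t2), at 10.3 to 16.6 by day and 9.81 to 13.7 by night. In CATA over COQ8A and between the CP3AB gene models they could not overlap, since the 2 gene models of each ratio stood in opposite order.

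The gene models also varied within the groups. Day replicate 2, the shallowest library (1552480 reads), held the lowest day value of CATA, CP3AB (Spis15558.t2), COQ8A and NF2L1 and the highest day value of CP3AB (Spis10258). Its deviations from the day mean on the log2 scale were -0.45 for CATA, -0.71 for COQ8A, -0.27 for NF2L1, -0.17 for CP3AB (Spis15558.t2) and 0.35 for CP3AB (Spis10258). The part of depth in this was not tested. Across all 6 libraries CATA and COQ8A were opposed (Pearson r = -0.79), but their deviations from the group means ran together (r = 0.68). The CP3AB gene models were opposed in both, with r = -0.95 over the libraries and -0.85 over the deviations. These are descriptions over 6 libraries that share their depth and their grouping.

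**Figure D4:**
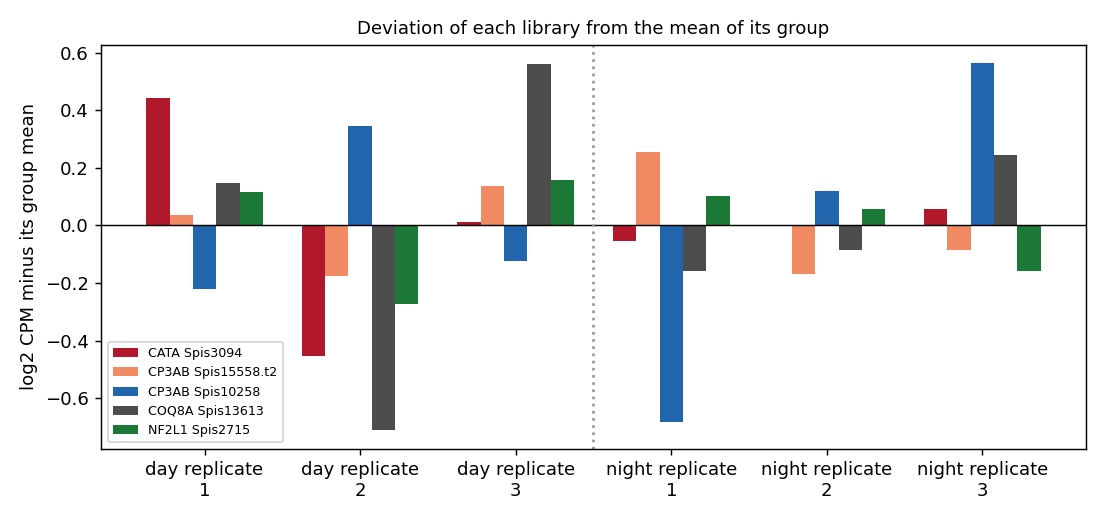
Log2 CPM of each library minus the mean of its group, for the 5 gene models. In day replicate 2 the values of CATA, CP3AB (Spis15558.t2), COQ8A and NF2L1 lie below the day mean and that of CP3AB (Spis10258) above it. The largest negative bar is COQ8A there (-0.71), followed by CP3AB (Spis10258) in night replicate 1 (-0.68).

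Other named genes were taken from the study's list by what their names do and not by direction. They cover related oxidation chemistry, coenzyme Q, iron and heme supply, and factors of the class of NF2L1. The study chose that list on these libraries, so these counts support no direction on their own. Of the 20 gene models reported in 6 groups, 5 rose, 14 fell and 1 did not pass. Of all gene models tested, 0.256% were called higher and 0.409% lower by day (0.666% in all). Among the 161 called over all gene models, 62 were higher and 99 lower by day. The median log2 fold change of the 20 was -1.21, against 0.0046 over all 24180 gene models tested. As the study's list holds only changed genes, such a gap could follow from that choice alone. Basic leucine zipper factors made up 3 of the 5 that rose and 1 of the 14 that fell. They were picked with earlier results known, so this describes the listed factors and not their class. Of the 19 called in edgeR, 10 passed without each library in turn and 9 did not pass without at least 1 of them. Limma-voom called 11 (0.461% of all gene models), and edgeR after filterByExpr called 18. Leaving out night replicate 1 left 12 of the calls, as did leaving out night replicate 2. The reads of 4 of the 20 (SOX, DLP1, ADCK1 and HLF) depend on the subtraction, and with the values as deposited these did not pass.

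Of 2 gene models for enzymes whose reactions release hydrogen peroxide, the substrate of catalase, 1 fell and 1 rose. SOX (Spis2213), a peroxisomal oxidase of sarcosine, fell to 5.23 ± 1.62 CPM by day, against 18.9 ± 3.68 CPM by night (SD, n = 3 each), a log2 fold change of -1.92 (standard error 0.33). Y9130 (Spis10799), named after a putative amine oxidase of Dictyostelium, rose to 340.2 ± 45.4 CPM by day, against 177 ± 20.0 CPM by night (SD, n = 3 each), but the call was lost when day replicate 1, night replicate 1 or night replicate 2 was left out.

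The listed gene models related to P450 oxidation and to coenzyme Q were lower by day, but every call except that of ADCK1 was lost without at least 1 library. NCPR (Spis12056), the reductase that feeds electrons to P450 enzymes, had 43.6 ± 4.12 CPM by day and 86.3 ± 12.5 CPM by night (SD, n = 3 each). FMO5 (Spis7901), a flavin monooxygenase of the same membrane, had 14.6 ± 1.66 CPM by day and 30.7 ± 0.625 CPM by night (SD, n = 3 each). In the coenzyme Q group 3 of 3 fell. ADCK1 (Spis2395), a relative of COQ8A, had 7.21 ± 2.48 CPM by day and 26.4 ± 6.02 CPM by night (SD, n = 3 each), and DLP1 (Spis551), a subunit of the enzyme that makes the side chain of coenzyme Q, fell 3.05-fold (log2 fold change -1.61, standard error 0.33). PROD (Spis9757), a proline dehydrogenase that passes electrons into the respiratory chain, fell by 0.85 (standard error 0.18). The call of NCPR was lost when night replicate 1 was left out, that of DLP1 when day replicate 1 or either of night replicates 1 and 2 was, that of PROD with any of the 4 libraries numbered 1 or 2, and that of FMO5 with any library other than day replicate 3.

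Catalase and P450 enzymes carry heme. Of 4 gene models for iron and heme supply, 3 fell and 1 rose. NCOA4 (Spis8191), which in mammals delivers ferritin for breakdown and so frees stored iron, had 103 ± 31.7 CPM by day and 33.7 ± 3.19 CPM by night (SD, n = 3 each), a log2 fold change of 1.63 (standard error 0.21). ABCB6 (Spis7710), a porphyrin transporter, fell by 1.22 (standard error 0.18). MFRN2 (Spis19230), a mitochondrial iron importer, fell by 0.83 (standard error 0.19) and did not pass without day replicate 1 or night replicate 2 or 3. TSPO, a protein of the outer mitochondrial membrane, fell by 1.45 (standard error 0.26).

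Among 5 other oxidoreductases, 4 fell and 1 did not pass. DHR12 (Spis3584), a short-chain dehydrogenase, fell 5.48-fold, and P4HTM (Spis3815), a prolyl hydroxylase that uses oxygen, fell 2.37-fold. ACADM (Spis17128), an acyl-CoA dehydrogenase of mitochondria, fell 2.28-fold and did not pass without day replicate 2. DAUE (Spis11343), named after a bacterial reductase, fell 11.0-fold at a low level (0.992 ± 0.544 CPM by day and 13.5 ± 5.58 CPM by night, SD, n = 3 each). ACOD (Spis21195), an acyl-CoA desaturase, had 18.8 ± 11.0 CPM by day and 53.1 ± 16.8 CPM by night (SD, n = 3 each) and did not pass.

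NF2L1 belongs to the factors with a basic leucine zipper, of which 4 others were on the list. FOS (Spis18079), CREM (Spis4729) and ATF4 (Spis9848) rose, with log2 fold changes of 2.57, 1.17 and 1.15, and HLF (Spis1683) fell by 7.35. CREM and ATF4 did not pass without night replicate 1 or 2, nor ATF4 without day replicate 2. The 0.71 of NF2L1 was smaller in size than any of these.

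**Figure D5:**
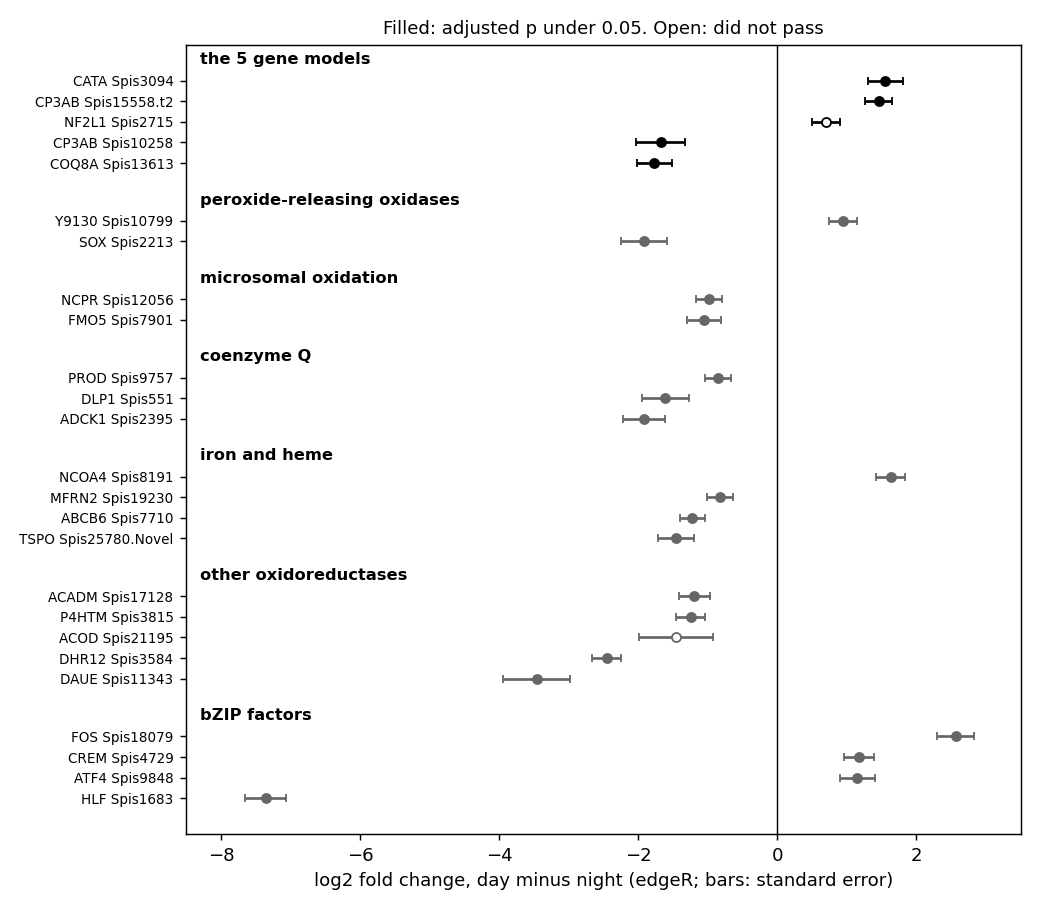
Log2 fold change (day minus night, edgeR) with its standard error for the 5 gene models (black) and the 20 listed ones (gray), by group. Filled circles passed an adjusted p of 0.05 and open circles (NF2L1 and ACOD) did not. SOX and the 5 other oxidoreductases lie left of 0, and CATA, CP3AB (Spis15558.t2), Y9130, NCOA4, FOS, CREM and ATF4 lie right of it.

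Likeness of pattern was measured as Pearson's r of log2 CPM over the 6 libraries, among 14261 other gene models with at least 10 reads in every library. Of the gene models with a name in the study's list, the closest to CATA were PAX3 (Spis375, whose reads depend on the subtraction; r = 0.98, rank 6 of all), Y9130 (r = 0.97, rank 17) and CREL2 (Spis17434, r = 0.96, rank 20). The deviations of CATA and PAX3 from the group means also ran together (r = 0.91), less so those of CATA with Y9130 (0.68) and CREL2 (0.67). CP3AB (Spis15558.t2) was closest to NPT2B (Spis12237), HEY (Spis21953) and ETS2 (Spis5906), each at r = 0.98 to 0.99 and ranks 5, 6 and 7. CP3AB (Spis10258) was closest to MFRN2 (r = 0.98, rank 3), with r = 0.95 over the deviations as well, followed by TSPO (r = 0.95, rank 21) and KCC2D (Spis10735, r = 0.95, rank 23). COQ8A was closest to ABHD4 (Spis2931, r = 0.99, rank 2), SCRB2 (Spis3490, r = 0.99, rank 4) and MDR1 (Spis5236.t1, r = 0.98, rank 10). NF2L1 was closest to PHC1 (Spis16576, r = 0.98, rank 6), SPDEF (Spis6216.t1, r = 0.97, rank 12) and NCOA4 (r = 0.96, rank 17). The ranks leave room for gene models without a name ahead of each of these, and the day and night grouping enters every r over the 6 libraries. Over the deviations, r of these pairs ran from 0.54 (CP3AB Spis15558.t2 with ETS2) to 0.98 (NF2L1 with SPDEF).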

How the data were processed

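The authors sequenced poly(A) libraries on a SOLiD 3 instrument. Single-end alignment in colorspace used Bowtie, with version 1.2.3 named in the submitters' processing notes, and the target was 1 coding sequence, the longest, for each gene model. Counting was done with their own Python script. The deposited counts are whole numbers, not normalized and not pooled. A gene model whose ID starts longer IDs holds the reads of those IDs as well. They were subtracted, longest IDs first, which left 0 values below 0 and totals equal to the study's listed mapped reads in 6 of 6 libraries. Gene models with no read (1589) were left out. Day minus night was fitted for 24180 gene models in R 4.3.3 with edgeR 4.0.16 (TMM, robust quasi-likelihood F test, two-sided, Benjamini-Hochberg, threshold 0.05). On simulated data the fit found most gene models changed by the larger fold, but where counts were drawn with gene-wise dispersions the share of false calls was above the threshold, less so after filterByExpr and near or below it with trended dispersions, and an adjusted p may therefore be too small. The standard error is the log2 fold change divided by the square root of F. Levels on the log2 scale used a prior count of 1. Ratios within a replicate number are ratios of CPM, with 95% exact binomial intervals.

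Replicate numbers were checked on deviations from the group means, over gene models with at least 10 reads in every library. Same-numbered libraries correlated at 0.24, 0.19 and 0.37, others at -0.28 to 0.09. Because the deviations of a group sum to 0, positive values here force negative ones, so the contrast is weak evidence of pairing. Number 2 was the shallowest library in both groups, and the part of depth was not tested. Ratios within numbers were therefore given as well. The main fit did not use the numbers, and the replicate block was an alternative. Nothing ties a number to a parent colony, so the spread is that between these samples. Alternatives were RLE factors, filterByExpr, DESeq2 1.42.0, limma-voom (limma 3.58.1), the replicate block in edgeR and DESeq2, the values as deposited, a prior count of 5, and leaving out each library. Tables were made in Python 3.11.15 (pandas 2.3.3, numpy 2.4.6, scipy 1.17.1) and figures with matplotlib 3.10.9. The 5 gene models and the gene groups were chosen with earlier results of these data known. Some gene models of the groups are not reported here and are in none of the group counts. Text names every other gene model of each group and, for likeness, the 3 named gene models with the highest r. The reference gene table could not be matched to these IDs, so lengths, positions and tissue markers were not used.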

Additional observations from a re-analysis of the deposited data

How the results depend on the processing

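The log2 fold changes of the 5 gene models kept their direction in 65 of 65 values under 13 alternatives each. They moved by less than 1 SD between replicates in 65, taking the larger of the day and night SD on the log2 scale. Day and night libraries did not overlap in any of the 5, so leaving out a library could not reverse a direction. Leaving out 1 of 3 libraries also cannot move a group mean by 1 SD of that group. For the values with a library left out, neither count therefore measures stability. The 5 were chosen on this contrast, so their calls say nothing of stability. Those of CP3AB (Spis10258) and NF2L1 changed with the setting. Leaving out 1 library gave 1.30 to 1.75 for CATA, 1.38 to 1.60 for CP3AB (Spis15558.t2), -1.97 to -1.33 for CP3AB (Spis10258), -2.10 to -1.55 for COQ8A and 0.63 to 0.83 for NF2L1. The 30 values within replicate numbers under RLE factors or a prior count of 5 kept direction and stayed within 1 SD, taken in the same way. Among all gene models tested, 161 were called, 79 with limma-voom, 409 with the replicate block in edgeR, 94 to 233 when a library was left out (97 without night replicate 1 and 94 without night replicate 2). Of the 20 listed gene models 19 were called, 11 with limma-voom and 12 to 20 when a library was left out (12 without night replicate 1 and 12 without night replicate 2). The replicate block in edgeR called 20 of them, ACOD included, and besides NF2L1 it changed no call of the 5. Depth limits CP3AB (Spis10258) most, where 11 reads carry a counting error of 30.2%.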
